A study of Mus musculus with 32 samples.

Results

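The response of CD4+ T cells to antigen in medium short of lysine was measured at 48 h on 6 arrays, of 32 in the series. Of these, 3 hold cells cultured with OVA peptide in medium with lysine at 1% of normal, and the other 3 hold cells cultured in the same medium without peptide. They were picked by their labels. The gene lists used below were chosen with earlier results of these data known. The T cells came from the axial and cervical lymph nodes of DO11.10 TCR transgenic mice on the Balb/c background, whose transgenic receptor recognizes a peptide of ovalbumin (OVA). All cultures held macrophages washed from the peritoneum 3 days after thioglycollate as antigen-presenting cells, in RPMI rebuilt from a SILAC base so that a single amino acid could be left low. CD4+ viable singlets were then sorted, and 100 ng of RNA was put on Affymetrix Mouse Gene 2.0 ST arrays. For comparison, antigen was also given in medium with arginine at 1% of normal (3 arrays, against 2 without antigen) and with leucine at 1% (3 against 3), and in full medium (3 arrays). Antigen with macrophages pretreated with IL-4 and IL-10 at 10 ng/mL formed another group in full medium (3 arrays). It entered the shared fit and the choice of probe sets, but no comparison here. A group in full medium without antigen was not among the 48 h arrays, so the antigen effect in low lysine could be tested against that in low arginine or low leucine, but not against that in full medium. Because the receptor is a transgene of fixed specificity, the cells model the response to a single peptide. They were sorted by CD4 and not by that receptor, so cells with other receptors may be present.

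A naive CD4+ T cell that meets its peptide signals through its receptor to calcium-regulated and AP-1 factors, makes interleukin 2 (IL-2) and the high-affinity IL-2 receptor, grows, copies its DNA and divides. Growth needs amino acids, and lysine is essential: it is imported by the cationic amino acid transporters of the Slc7 family and loaded onto its tRNA by lysyl-tRNA synthetase. A tRNA left without its amino acid activates the kinase GCN2, which slows translation and raises the factor ATF4. ATF4 in turn drives genes for amino acid synthesis, transport and tRNA loading.

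Values are log2 expression, where 1 unit is 2-fold, and changes are log2 fold changes ± SE with n = 3 arrays per group. A gene "rose" or "fell" where limma gave a Benjamini-Hochberg adjusted p below 0.05 over the 22180 genes tested. The labels do not state whether replicates came from different wells or mice. The p-values thus weigh differences only against the spread of these samples, which may be technical. That spread was pooled over all 8 groups of the 48 h arrays, not taken from the compared groups alone. The number of arrays limits the precision. No pair of arrays was identical, and the 6 correlated with each other at 0.9084 to 0.9734 across probe sets. Array medians over all probe sets were 5.485 to 5.584 with antigen and 5.714 to 5.75 without it. Over the genes tested, array medians differed by -0.14 on average, and the median of the log2 fold changes was -0.09, so a change of 0 lies slightly above the middle of all genes. The sorted cells carried the T cell markers they should: Cd3e lay between 11.22 and 11.77 in all 6 arrays, and Cd4 between 9.52 and 10.08. Macrophage markers were also present. Their mean level over 23 genes was 7.32 to 7.72 without antigen and 6.41 to 6.95 with it, and 15 of the 23 fell while none rose. Cd68 went from 10.42, 10.38 and 11.13 to 8.97, 9.64 and 8.38, and Lyz2, the macrophage lysozyme, from 10.54, 10.58 and 11.27 to 9.84, 10.30 and 9.11. The full-medium arrays come from other runs of submitter numbers, so run and medium cannot be told apart there. B cell markers averaged 5.86 to 6.03 without antigen. With antigen they averaged 6.76 in replicate 1 and 6.08 and 5.93 in the other two. The part of macrophage and B cell RNA in the changes below was not tested. In sorted bulk samples, fewer cells of a type and less RNA per cell cannot be told apart.

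Antigen changed 6884 of 22180 genes in low lysine, which is 31.0%. Of these, 4086 rose (18.4% of all genes) and 2798 fell (12.6%). Counts of rises and falls within the lists below are to be read against these shares. Changes of 2-fold or more were mostly rises, with 1564 genes up and 337 down. The split leaned on the scaling: 59.4% of called genes were higher on the deposited scale, 49.1% after quantile normalization and 79.0% after centring each array on its median. Small numbers of falls within lists leaned on it too: after centring, no member of the early activation, chemokine, lineage factor, neutral carrier, fatty acid, BCL2, cytokine feedback or HIF-1 lists fell. Called genes numbered 6517 (29.4%) for antigen in low arginine and 9165 (41.3%) in low leucine.

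**Figure D1:**
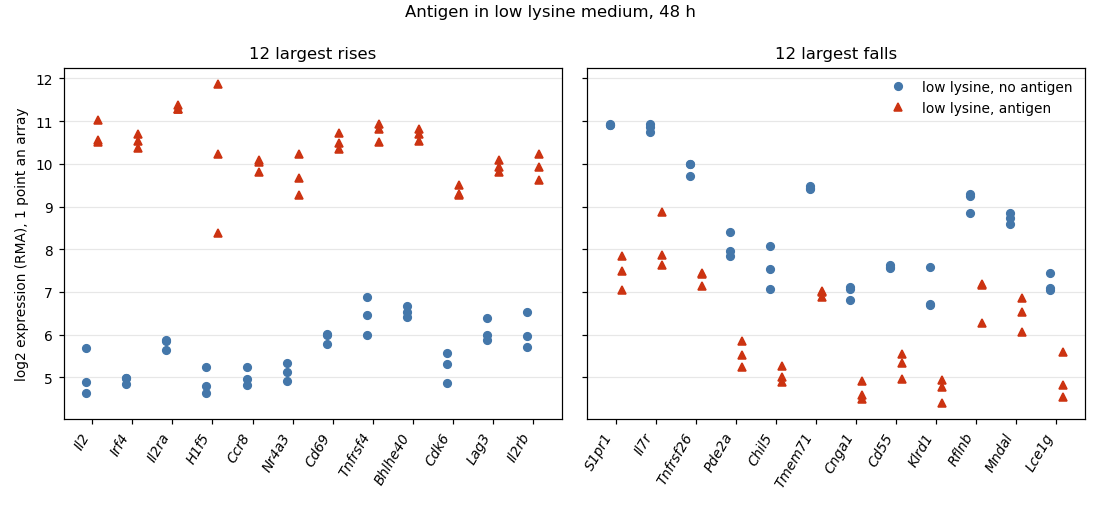
Log2 expression (RMA) of the 12 genes with the largest rise (left) and the 12 with the largest fall (right) among called genes whose arrays do not overlap; each point is 1 array, blue circles without antigen and red triangles with antigen, all in low lysine. Il2 lies at 4.64 to 5.68 without antigen and at 10.51 to 11.02 with it, and H1f5 has the widest spread among arrays with antigen, from 8.38 to 11.88.

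The largest rises were in the IL-2 system and in genes that report receptor signalling. Il2, the T cell growth factor, stood at 4.90, 5.68 and 4.64 without antigen and at 10.55, 10.51 and 11.02 with it, a change of 5.61 ± 0.29 (adjusted p = 9.62e-13). Il2ra, the alpha chain that makes the IL-2 receptor high-affinity, went from 5.63, 5.85 and 5.87 to 11.29, 11.37 and 11.29 (5.53 ± 0.13, adjusted p = 9.01e-19). Both genes were high in every array with antigen and low in every array without it. Il2rb, the beta chain shared with the IL-15 receptor, rose by 3.86 ± 0.20, and Cish, a feedback inhibitor that STAT5 induces, by 3.12 ± 0.13. Il7r, the receptor chain for the survival cytokine of resting T cells, ran the other way. It lay at 10.86, 10.74 and 10.94 without antigen and at 7.63, 8.87 and 7.87 with it (-2.72 ± 0.22, adjusted p = 1.91e-09). Of the 10 measured genes of the IL-2 family, 7 rose and 1 fell, with a median change of 1.22.

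The promoter of Il2 is shown because Il2 had the largest rise of any named gene here and NFAT is its textbook regulator. The 250 bases before the RefSeq start site (GRCm38.p6, chr3:37125955-37126204, minus strand, printed 5′ to 3′ along the gene) hold the NFAT core GGAAAA, searched on both strands, at 137 and 48 bases before the start. Capitals mark the matches, and the second is on the opposite strand.
Il2: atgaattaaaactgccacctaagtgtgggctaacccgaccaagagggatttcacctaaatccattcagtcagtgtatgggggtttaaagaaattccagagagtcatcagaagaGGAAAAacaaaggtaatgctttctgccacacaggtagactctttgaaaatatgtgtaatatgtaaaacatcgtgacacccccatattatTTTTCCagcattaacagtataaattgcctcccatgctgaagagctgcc
The core is a short motif: 25.2% of the 16990 tested genes with a RefSeq window of 300 bases hold it, as do 24.6% of the genes that rose and 25.4% of those that fell. A match is a description of letters, not of binding.

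Early activation genes rose together: 18 of 20 rose and 1 fell, with a median change of 1.62. Irf4, a factor whose level tracks the strength of receptor signalling, went from 4.84, 4.99 and 4.98 to 10.71, 10.36 and 10.54 (5.60 ± 0.13, adjusted p = 9.01e-19). Cd69, an early activation antigen that retains cells in lymph nodes, rose by 4.59 ± 0.13 to 10.48, 10.35 and 10.73. Nr4a3 and Nr4a1, nuclear receptors induced by receptor signalling, rose by 4.6 ± 0.24 and 3.37 ± 0.17. Myc, which drives growth, rose by 1.97 ± 0.11. In low arginine and low leucine the same list had medians of 1.57 and 1.73. Bhlhe40, a factor needed for helper cytokine output, was outside that list and rose by 4.15 ± 0.14.

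Genes of the receptor moved in both directions. Of 13 measured genes of the receptor complex and its first signalling steps, 4 rose and 3 fell (against 18.4% and 12.6% of all genes), around a median of -0.06. Zap70, the kinase that binds the phosphorylated receptor, went from 7.60, 7.61 and 7.99 to 9.22, 9.23 and 9.52 (1.59 ± 0.16), and Plcg1, the phospholipase downstream of it, changed by -0.88 ± 0.18, or -1.33 after quantile normalization. Cd3e changed by -0.24 ± 0.13 (adjusted p = 0.172). The list's direction leaned on the scaling, since after quantile normalization 1 member rose and 8 fell with a median of -0.33, and Cd4 (0.48 ± 0.14), Lcp2 (0.69 ± 0.13) and Ptpn22 (0.65 ± 0.16) were no longer called. Among 11 AP-1 factors, 3 rose: Atf3 by 1.01 ± 0.19 (0.57 after quantile normalization), Fosl2 by 0.93 ± 0.19 and Junb by 0.91 ± 0.21. Junb lost its call after quantile normalization.

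Of 19 helper cytokine genes, 11 rose and none fell, with a median of 0.76. Tnf went from 7.05, 6.44 and 6.41 to 10.41, 10.27 and 10.48 (3.75 ± 0.16, adjusted p = 7.45e-14). Lta, which encodes lymphotoxin alpha, rose by 3.04 ± 0.20, Lif by 2.42 ± 0.20 and Il17a by 2.17 ± 0.49. Ifng, the Th1 cytokine, did not pass: it lay at 4.39, 5.09 and 4.78 without antigen and at 4.63, 5.05 and 6.77 with it, so that only replicate 3 stood above the cells without antigen (0.73 ± 0.38, adjusted p = 0.145). Replicate 3 was also the highest for Tbx21, the Th1 lineage factor, at 8.14 against 6.82 and 6.71 in the others, and the rise of 1.07 ± 0.28 was no longer called without it. Other lineage factors with a called change included Nfil3 (1.5 ± 0.20), Foxp3 (0.97 ± 0.17) and Id2 (0.96 ± 0.19), of which the last 2 were at 0.50 and 0.55 after quantile normalization. In that list 6 of 12 rose and 2 fell, against 18.4% and 12.6% of all genes.

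Of 14 genes of chemokines and their receptors, 4 rose, 1 fell and 9 were not called, with a median of 0.3. Among the receptors, Ccr8, Ccr4 and Cxcr5 rose, while Cxcr3, Cxcr4, Cxcr6, Ccr6 and Ccr7 did not. Over all genes, 18.4% rose and 12.6% fell. Ccr8, a receptor on Th2 and regulatory cells, went from 5.23, 4.97 and 4.81 to 10.05, 9.80 and 10.10 (4.97 ± 0.22, adjusted p = 1.13e-13). Ccr4 rose by 2.72 ± 0.22, the chemokine gene Ccl3 by 1.03 ± 0.26, and Cxcr5, the receptor for B cell follicles, by 1.00 ± 0.22.

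Genes of costimulation and of inhibition rose side by side. Of 16 costimulation and TNF superfamily genes, 9 rose and 1 fell. Tnfrsf4, which encodes OX40, went from 6.89, 5.99 and 6.46 to 10.93, 10.51 and 10.82 (4.31 ± 0.19), Tnfsf11, which encodes RANKL, rose by 2.72 ± 0.17, and Tnfrsf18, which encodes GITR, by 2.60 ± 0.21. Of 12 genes in the inhibitory receptor list, 8 rose and none fell, with a median of 1.35. That list also holds the ligand genes Cd200 and Cd274 and the ectoenzyme genes Entpd1 and Nt5e. Lag3, a ligand of MHC class II, went from 6.39, 5.88 and 5.98 to 10.09, 9.82 and 9.93 (3.86 ± 0.20). Cd200 rose by 3.34 ± 0.16, Tigit by 2.83 ± 0.33 and Ctla4, the competitor of CD28, by 2.78 ± 0.23. In the cytokine feedback list, which holds Dusp, Spry and Pim genes beside the SOCS genes, 8 of 14 rose and 1 fell. Risers included the phosphatase genes Dusp6 (2.89 ± 0.22) and Dusp5 (2.13 ± 0.17), Spry1 (2.01 ± 0.22) and Socs1 (1.92 ± 0.17).

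Cytotoxic granule genes gave no common direction: of 13, 4 rose and 2 fell, with a median of 0.04. The shares over all genes were 18.4% and 12.6%. Gzmb, which encodes granzyme B, went from 4.75, 5.16 and 4.82 to 6.84, 6.68 and 9.45, so replicate 3 stood well above the other 2 arrays with antigen (2.74 ± 0.46, adjusted p = 6.57e-05). Prf1, which encodes perforin, fell by 1.01 (SE 0.20).

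Genes of the naive and resting state fell. Of 20, 15 fell and 1 rose, against 12.6% of all genes falling, with a median of -0.76. S1pr1, the sphingosine 1-phosphate receptor that lets T cells leave lymph nodes, had the largest fall of any named gene. It went from 10.91, 10.94 and 10.91 to 7.83, 7.48 and 7.04 (-3.47 ± 0.22, adjusted p = 2.82e-11). Klf2, the factor that drives S1pr1, fell by 1.22 (SE 0.19), and Btg2 and Pik3ip1, which restrain division and PI3K signalling, by 1.77 (SE 0.17) and 1.69 (SE 0.19). Dapl1 fell by 1.77 (SE 0.21). Outside the list, large falls included the TNF receptor family member Tnfrsf26 (-2.58 ± 0.19), the phosphodiesterase gene Pde2a (-2.52 ± 0.19), Tmem71 (-2.47 ± 0.14), Cnga1 (-2.33 ± 0.18) and the complement regulator Cd55 (-2.31 ± 0.24). Chil5 (-2.51 ± 0.22), whose family members mark macrophages, and Klrd1 (-2.30 ± 0.24), an NK cell receptor chain, also fell. Rflnb (-2.26 ± 0.19), Mndal (-2.23 ± 0.18) and Lce1g (-2.21 ± 0.42) completed the 12 largest falls. These 12 were picked only among called genes without overlap between groups. Mndal has near-identical neighbours, so its value is uncertain.

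**Figure D2:**
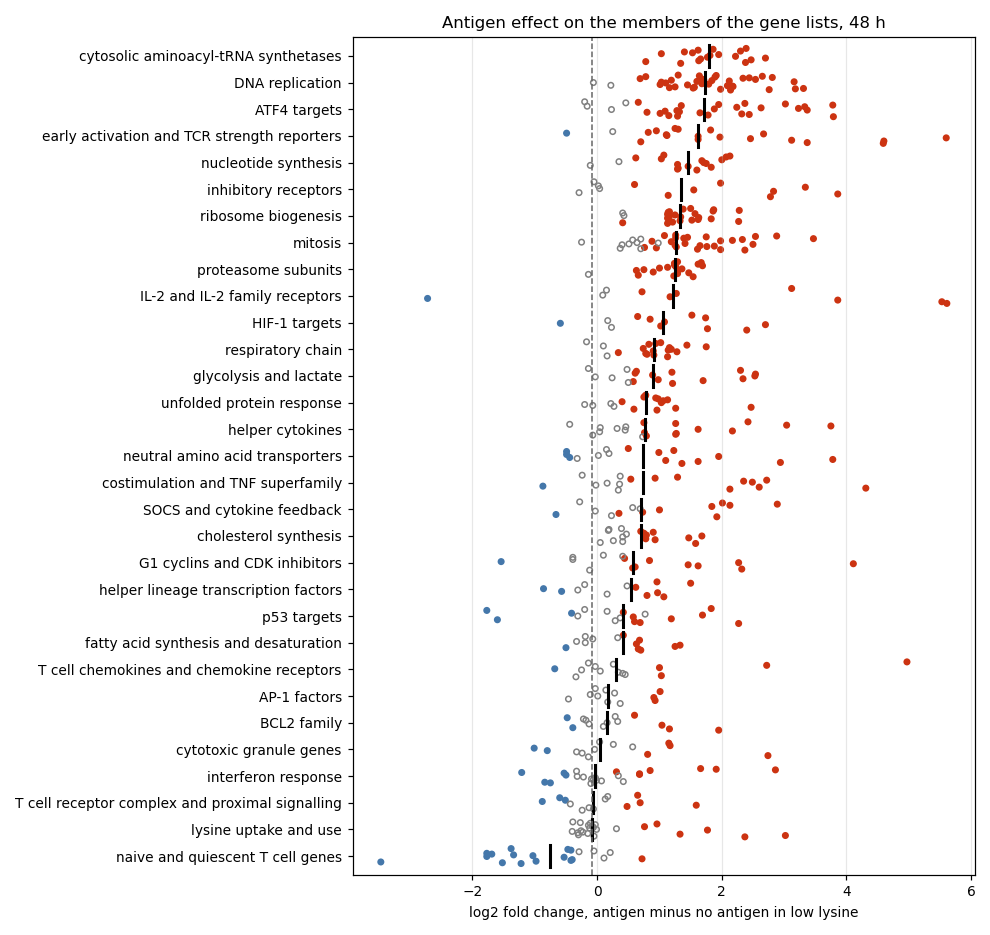
Log2 fold change with antigen in low lysine for every measured member of 31 gene lists, 1 point per gene; red points rose, blue points fell, open grey points were not called, the black bar is the list median and the dashed line the median of all genes at -0.09. Lists are ordered by median, from the aminoacyl-tRNA synthetases at 1.79 to the naive and quiescent genes at -0.76.

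Genes that answer amino acid shortage rose with antigen. Of 28 measured ATF4 targets, 24 rose and none fell, with a median of 1.72, against 18.4% of all genes rising. Asns, asparagine synthetase and the standard marker of the response, went from 5.90, 6.83 and 6.16 to 9.97, 10.01 and 10.29 (3.79 ± 0.22, adjusted p = 1.18e-11). Psat1, of serine synthesis, rose by 3.37 ± 0.15, Cth, of cysteine synthesis, by 3.33 ± 0.28, and Chac1, a glutathione-degrading enzyme, by 1.29 ± 0.15. The mean level of the list was 6.50 to 6.6 without antigen and 8.24 to 8.41 with it. Without antigen, cells in low lysine (6.50 to 6.6), low arginine (6.62 to 6.67) and low leucine (6.55 to 6.66) lay close together. With antigen the list stood at 8.65 to 8.80 in low arginine, 8.42 to 8.52 in low leucine and 7.57 to 7.79 in full medium. The low lysine arrays thus lay between full medium and the other 2 low media; this ordering was not tested. The antigen effect had a list median of 2.13 in low arginine and 2.17 in low leucine.

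The promoters of Asns and Nupr1 are shown because both are ATF4 targets, and Nupr1 is one whose response differed from that in low arginine in 16 of 19 alternative fits. Each holds the C/EBP-ATF element TGATGNAA, searched on both strands, which capitals mark. The Asns window is chr6:7693210-7693459 (minus strand) with the element 23 bases before the start, and the Nupr1 window is chr7:126625471-126625720 (minus strand) with the element 110 bases before it, on the opposite strand.
Asns: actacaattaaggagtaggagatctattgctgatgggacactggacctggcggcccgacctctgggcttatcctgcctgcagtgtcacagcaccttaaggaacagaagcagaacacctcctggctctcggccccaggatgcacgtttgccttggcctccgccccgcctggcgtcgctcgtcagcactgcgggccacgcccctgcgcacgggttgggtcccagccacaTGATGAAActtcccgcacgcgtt
Nupr1: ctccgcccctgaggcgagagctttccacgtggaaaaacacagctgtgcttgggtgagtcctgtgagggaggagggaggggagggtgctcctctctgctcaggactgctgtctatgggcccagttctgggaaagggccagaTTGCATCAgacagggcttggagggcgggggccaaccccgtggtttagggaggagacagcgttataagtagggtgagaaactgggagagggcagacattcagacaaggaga
Among ATF4 targets, 8 of 25 with a window (32.0%) hold the element: Asns, Chac1, Trib3, Atf3, Nupr1, Slc7a11, Vldlr and Fgf21. Over all tested genes with a window the share is 3.92%, and it is 2.68% among genes that rose and 4.41% among those that fell. The cytosolic aminoacyl-tRNA synthetases hold it in 4 of 11 (36.4%).

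Every measured cytosolic aminoacyl-tRNA synthetase rose, 18 of 18, with a median of 1.79. Iars, for isoleucine, rose most, from 7.29, 7.47 and 7.75 to 10.13, 10.20 and 10.27 (2.70 ± 0.12). Gars rose by 2.47 ± 0.11, Yars by 2.39 ± 0.15 and Eprs by 2.38 ± 0.13. Kars, which loads lysine itself, went from 7.89, 7.95 and 7.96 to 9.53, 9.55 and 10.02 (1.77 ± 0.13, adjusted p = 4.13e-10), close to the list median. Its change was 1.39 in low arginine and 1.86 in low leucine.

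Among genes for lysine uptake and use, 3 transporters and 3 other genes rose. Of the 23 measured, 6 rose (against 18.4% of all genes) and none fell, and the median was -0.08, which became 0.02 after quantile normalization and 0.06 after centring. Slc7a3, a cationic amino acid transporter, went from 5.31, 5.40 and 5.83 to 8.20, 8.77 and 8.62 (3.02 ± 0.16, adjusted p = 1.93e-12). Slc7a1, the main cationic transporter of dividing cells, went from 6.82, 6.91 and 6.96 to 9.28, 9.31 and 9.20 (2.37 ± 0.14, adjusted p = 1.03e-11), and Slc7a6, an exchanger of cationic for neutral amino acids, rose by 1.33 ± 0.14. None of the 3 overlapped between groups. In full medium with antigen, Slc7a3 averaged 6.31, Slc7a1 8.87 and Slc7a6 8.55. The changes of Slc7a3 in low arginine (3.40) and low leucine (3.22) were of the same order. The other transporters measured, Slc7a2, Slc7a4, Slc7a7, Slc7a9, Slc3a1, Slc6a14 and the lysosomal exporter Slc66a1, lay between -0.40 and -0.05 and were not called; of these Slc7a2 (-0.05) turned to 0.14 after quantile normalization and 0.09 after centring. Enzymes that break lysine down were not called either: Aass, the first of the pathway, changed by -0.01 ± 0.18 (0.17 and 0.13 under the same scalings), Aldh7a1 by 0.31 ± 0.17, Aadat by -0.12 ± 0.13 and Gcdh by -0.06 ± 0.18. Dlst, a subunit shared with the citric acid cycle, rose by 0.76 ± 0.12, or by 0.29 after quantile normalization. Of the enzymes that modify lysine in collagen, Plod2 rose by 0.96 ± 0.29, a call lost without antigen replicate 3 or no-antigen replicate 1, while Plod1, Lox, Loxl1 and Loxl3 were not called. Tmlhe and Bbox1, of carnitine synthesis from lysine, were not called.

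Carriers of neutral amino acids rose in 9 of 16 cases and fell in 3. After centring, 9 rose and none fell. Slc7a5, the leucine carrier of activated T cells, went from 6.39, 6.99 and 7.56 to 10.76, 10.57 and 10.96 (3.78 ± 0.19, adjusted p = 6.57e-13). Its partner chain Slc3a2 rose by 1.95 ± 0.13, the glutamine carrier Slc1a5 by 2.94 ± 0.12 and Slc38a1 by 1.62 ± 0.11.

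Growth and energy genes rose broadly. Ribosome biogenesis rose in 22 of 24 genes (median 1.33), led by Gnl3 (2.28 ± 0.14), Nop58 (2.27 ± 0.14), Utp20 (1.87 ± 0.17) and Ddx21 (1.86 ± 0.17). Proteasome subunits rose in 19 of 20 (median 1.25, Psmc2 1.69 ± 0.19) and nucleotide synthesis in 15 of 17 (median 1.46, Mthfd1l 2.13 ± 0.18). The respiratory chain rose in 16 of 19 (median 0.91, Cycs 1.75 ± 0.11). Glycolysis rose in 12 of 17 (median 0.89), with Pgk1 at 2.54 ± 0.13, Tpi1 at 2.53 ± 0.21 and Hk2, hexokinase 2, at 1.70 ± 0.20. Of 12 HIF-1 genes, 9 rose and 1 fell, among them Hif1a (2.40 ± 0.11), Vegfa (1.77 ± 0.18) and Egln3 (2.70 ± 0.33). Unfolded protein response genes rose in 13 of 17 (median 0.78), with Atf6 at 2.47 ± 0.17. No gene of the ribosome, proteasome, nucleotide, respiratory, glycolysis or unfolded protein lists fell on the deposited scale.

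Genes of lipid synthesis rose in part. Of 17 cholesterol synthesis genes, 9 rose and none fell, with a median of 0.70. Cyp51, a demethylase of the sterol pathway, went from 5.66, 5.87 and 5.81 to 7.03, 7.45 and 7.89 (1.68 ± 0.15), and Hmgcs1, which makes the HMG-CoA that the pathway starts from, from 6.87, 6.70 and 6.94 to 8.37, 8.19 and 8.68 (1.58 ± 0.16, adjusted p = 4.92e-08). Sqle rose by 1.47 ± 0.19. With antigen the list averaged 7.30 to 7.67 in low lysine, 7.08 to 7.18 in low arginine, 7.31 to 7.40 in low leucine and 8.62 to 8.89 in full medium. All 3 low media thus lay below full medium, a difference not tested here. Fatty acid synthesis rose in 7 of 13 and fell in 1. After quantile normalization 3 rose, and Elovl1 (0.68 ± 0.12) was among those lost. Scd1, the desaturase, went from 4.19, 4.54 and 4.59 to 6.67, 5.17 and 5.46 (1.33 ± 0.29), against a mean of 9.59 in full medium with antigen.

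The promoter of Hmgcs1 is shown because Hmgcs1 responded more in low lysine than in low arginine, a call lost in 11 of 19 alternative fits. Its window, chr13:119690101-119690350 (plus strand), holds the sterol response element TCACNCCAC, searched on both strands, 137 bases before the start, in capitals.
Hmgcs1: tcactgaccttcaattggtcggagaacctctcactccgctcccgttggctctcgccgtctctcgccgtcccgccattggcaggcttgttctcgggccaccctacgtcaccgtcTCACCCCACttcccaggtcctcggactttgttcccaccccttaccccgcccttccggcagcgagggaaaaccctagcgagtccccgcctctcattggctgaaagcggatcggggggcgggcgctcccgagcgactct
It is the only 1 of 14 cholesterol genes with a window to hold these letters, against 1.43% of all genes.

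Genes of cell cycle entry and DNA replication rose in most cases, and the arrays with antigen differed among themselves in replication and more so in mitosis genes. Of 15 G1 genes, 9 rose and 1 fell. Cdk6, the G1 kinase, went from 4.86, 5.57 and 5.30 to 9.29, 9.26 and 9.51 (4.11 ± 0.19, adjusted p = 1.33e-13), and its partner Ccnd2 rose by 2.32 ± 0.13. Cdkn1a, the p53-responsive inhibitor p21, rose by 2.27 ± 0.28. Replication genes rose in 37 of 39 (median 1.73). Mcm6, of the replicative helicase, went from 6.13, 6.63 and 6.37 to 9.35, 9.80 and 9.92 (3.31 ± 0.18, adjusted p = 1.87e-12). Mcm5 rose by 3.18 ± 0.19, Prim1, of the primase, by 3.16 ± 0.25 and Rrm2, of ribonucleotide reductase, by 2.81 ± 0.38. Mitosis genes rose in 26 of 35 (median 1.27) and none fell. Cdk1, the mitotic kinase, went from 4.81, 5.59 and 5.45 to 6.27, 7.78 and 8.91 (2.37 ± 0.44, adjusted p = 0.000211). Mki67, the proliferation marker, went from 5.37, 5.68 and 5.64 to 6.58, 8.99 and 9.76 (2.88 ± 0.49), and Top2a, topoisomerase II alpha, from 5.46, 5.45 and 4.90 to 7.25, 8.84 and 10.11 (3.47 ± 0.43). All 3 genes lay lowest in antigen replicate 1 and highest in replicate 3, without overlap with the cells lacking antigen.

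This spread among arrays with antigen was shared across the division genes. The mean mitosis level was 6.05, 6.96 and 8.04 in antigen replicates 1, 2 and 3, and 5.53, 5.68 and 5.58 without antigen. Of the 35 mitosis genes, 34 were lowest in replicate 1 and highest in replicate 3, as were 31 of 39 replication genes and 15% of all genes. The median SD of a mitosis gene was 0.93 with antigen and 0.20 without it, and that of a replication gene 0.42 and 0.22, against 0.19 and 0.18 over all genes. The other antigen groups compared here were tight and higher: 8.57 to 8.73 in low arginine, 8.14 to 8.47 in low leucine and 8.80 to 8.91 in full medium. Replication genes averaged 7.73, 8.26 and 8.59 in the same 3 arrays, against 8.85 to 9.0 in low arginine and 8.55 to 8.76 in low leucine. Without antigen replicate 3, 17 mitosis genes rose in place of 26, and without replicate 1, 30 rose. Replication calls held at 37 without replicate 1 and 35 without replicate 3. The SEs pool the spread of all 8 groups, so for mitosis genes they understate that of the low lysine arrays with antigen. For Cdk1 the adjusted p reached 0.0079 among the alternatives, and its call was kept in all of them. Replicate 3 also had the lowest mean of macrophage markers (6.41) and replicate 1 the highest mean of B cell markers (6.76). Their part in this spread was not tested.

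**Figure D3:**
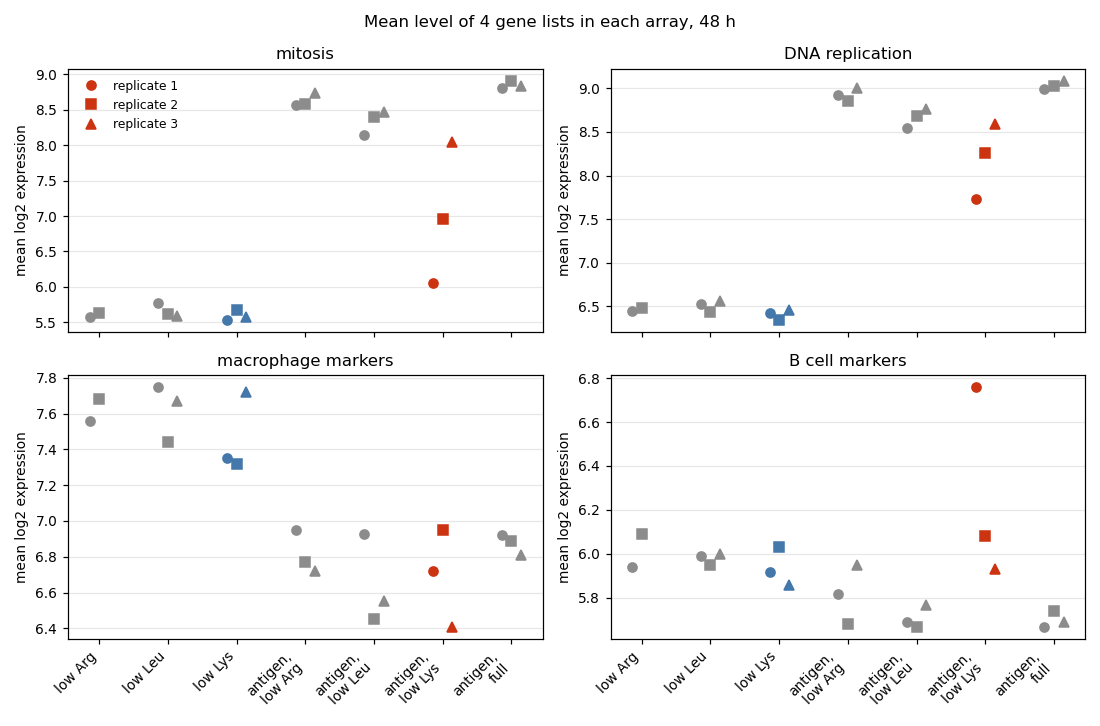
Mean log2 expression of the mitosis, DNA replication, macrophage and B cell lists in each 48 h array, by group, without the group with pretreated macrophages. Low Arg, Leu or Lys stands for that amino acid at 1% of normal, and full for full medium. Blue marks low lysine without antigen, red low lysine with antigen, grey the other groups drawn, and the symbol gives the replicate. The vertical axes do not start at 0, and the 3 red points of the mitosis list run from 6.05 to 8.04. Each other antigen group drawn lies at 8.14 or more in that list.

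The promoters of Mcm6 and Cdk1 are shown as examples of the replication and mitosis genes. The Mcm6 window, chr1:128359706-128359955 (minus strand), holds the E2F site TTTNNCGC at 110, 106 and 47 bases before the start, of which the first 2 overlap on opposite strands. The Cdk1 window, chr10:69352913-69353162 (minus strand), holds the cell cycle homology region (CHR) TTTGAA, to which the repressor DREAM and its activating counterparts bind, at 71 and 15 bases before the start. Both motifs were searched on both strands, and capitals mark the matches.
Mcm6: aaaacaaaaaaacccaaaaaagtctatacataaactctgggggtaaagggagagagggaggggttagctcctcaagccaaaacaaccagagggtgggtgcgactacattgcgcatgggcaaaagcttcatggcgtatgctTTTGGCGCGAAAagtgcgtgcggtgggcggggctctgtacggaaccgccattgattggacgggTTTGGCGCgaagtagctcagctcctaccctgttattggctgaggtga
Cdk1: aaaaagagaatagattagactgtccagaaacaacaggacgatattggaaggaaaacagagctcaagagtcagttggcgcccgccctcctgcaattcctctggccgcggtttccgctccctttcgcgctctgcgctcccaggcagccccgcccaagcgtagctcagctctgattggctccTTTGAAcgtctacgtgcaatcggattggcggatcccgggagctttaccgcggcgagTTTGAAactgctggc
An E2F site was found in 15 of 33 replication genes with a window (45.5%) and in 7.16% of all genes, 11.9% of those that rose and 4.94% of those that fell. The CHR was found in 22 of 28 mitosis genes (78.6%) and in 17.8% of all genes, 14.5% of those that rose and 19.2% of those that fell. The 2 lists differed in the letters they held, since 1 of 28 mitosis genes held the E2F site and 5 of 33 replication genes the CHR.

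**Figure D4:**
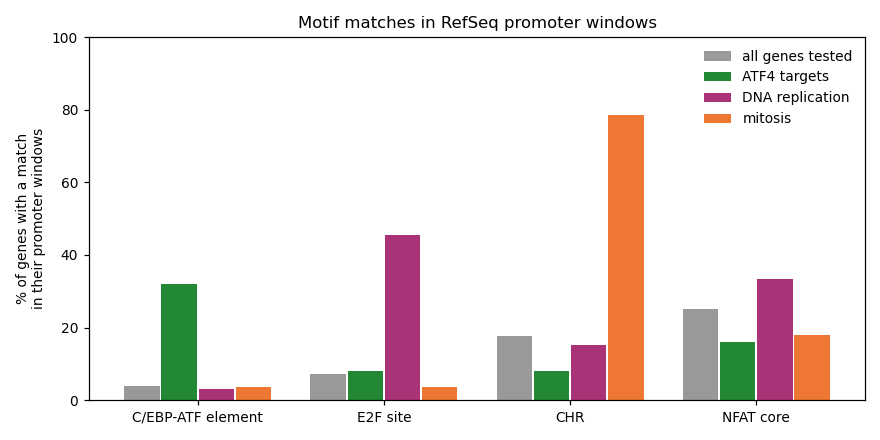
Share of genes (%) whose RefSeq promoter window of 300 bases holds a match to 4 motifs, for all tested genes with a window (grey, 16990 genes) and for ATF4 targets (green, 25), DNA replication (purple, 33) and mitosis (orange, 28). Of the sets drawn, the C/EBP-ATF element was most frequent in ATF4 targets (32.0%), the E2F site in replication genes (45.5%) and the CHR in mitosis genes (78.6%), while for the NFAT core the lists ran from 16.0% to 33.3% around the 25.2% of all genes.

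Of 13 BCL2 family genes, 4 rose and 2 fell, against 18.4% and 12.6% of all genes, and after centring none fell. Bcl2, which protects from apoptosis, went from 8.49, 8.37 and 8.46 to 10.50, 10.26 and 10.40 (1.95 ± 0.12), Bcl2l1 rose by 1.16 ± 0.12 and Bak1, which promotes it, by 1.04 ± 0.19 (0.55 after quantile normalization). Bbc3 (0.60 ± 0.20) lost its call without antigen replicate 1 or 2, without no-antigen replicate 3, and in each fit of the compared groups alone. Of 17 p53 targets, 8 rose and 3 fell. Of 24 interferon response genes, 7 rose and 5 fell. The risers with the largest changes encode GTPases that interferon gamma induces, Gbp5 (2.86 ± 0.19), Igtp (1.91 ± 0.22) and Iigp1 (1.66 ± 0.36), while Ddx58, the RNA sensor RIG-I, fell by 1.21 (SE 0.17).

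Markers of other cells were read in the same way, against 18.4% of all genes rising and 12.6% falling. Alternatively activated macrophage genes gave 1 rise and 2 falls among 14, and Arg1 lay between 6.12 and 6.77 in all 6 arrays (-0.16 ± 0.24). B cell genes gave 3 rises and 1 fall among 12, and 7 rises and no fall after centring. Cd79a lay at 6.43, 6.38 and 6.35 without antigen and at 7.90, 6.73 and 6.31 with it (0.59 ± 0.28, adjusted p = 0.109), and without antigen replicate 1 none of the 12 rose. Dendritic cell genes gave 3 rises and 4 falls among 13: H2-Ab1, an MHC class II chain, rose by 1.38 ± 0.22, H2-Aa by 0.86 ± 0.24 (lost without antigen replicate 1 or no-antigen replicate 3, and in the compared groups alone) and Ccl22 by 1.37 ± 0.31. CD8 T and NK genes gave 1 rise and 1 fall among 8, granulocyte and mast cell genes 3 falls among 17, and mesothelial and stromal genes 3 falls among 20; after centring these last 2 lists had 1 fall each.

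Few genes had an antigen effect that differed between the low media by the test of the difference. The antigen effect differed between low lysine and low arginine for 32 genes (0.144% of those tested), with 5 higher (0.0225%) and 27 lower (0.122%) in low lysine. Between low lysine and low leucine it differed for 16 genes (0.0721%), with 6 higher (0.0271%) and 10 lower (0.0451%). These comparisons share the low lysine arrays. At an unadjusted p below 0.05, 1793 and 1947 genes passed. The counts moved with single arrays: without antigen replicate 3 in low lysine they were 161 and 164, and without no-antigen replicate 1 in low arginine, of which there were only 2 arrays, the first was 5. Without antigen replicate 2 in low lysine or antigen replicate 3 in low leucine, the second was 1. A limma F test over the 3 antigen effects called 33 genes.

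Il2 responded more in low lysine than in low arginine. With antigen its level was 10.51 to 11.02 in low lysine, 7.83 to 8.86 in low arginine, 9.85 to 10.12 in low leucine and 8.55 to 9.54 in full medium. The low lysine arrays stood above all the others, while cells without antigen lay at 4.64 to 5.69 in all 3 low media. The antigen effect of 5.61 in low lysine exceeded the 2.85 in low arginine by 2.76 ± 0.43 (adjusted p = 0.00617). That call was lost without no-antigen replicate 1 in low arginine (adjusted p = 0.139) and in the 3 fits on the compared groups only. Hmgcs1 also responded more in low lysine than in low arginine, by 1.26 ± 0.24 (adjusted p = 0.0273), with levels under antigen of 8.19 to 8.68 against 7.51 to 7.66. Without antigen it lay at 6.70 to 6.94 in low lysine and at 7.17 and 7.38 in low arginine. The lower start in low lysine is thus part of the difference. In full medium with antigen Hmgcs1 stood higher, at 10.12 to 10.44. The call against low arginine was lost in 11 of 19 alternative fits, which included leaving out either no-antigen array of low arginine.

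Nupr1, a stress-induced ATF4 target, responded less in low lysine. Its level with antigen was 7.85 to 8.29 in low lysine, 9.85 to 10.26 in low arginine and 8.92 to 9.11 in low leucine. The effect of 1.28 in low lysine was below the 3.02 in low arginine by 1.74 on the log2 scale (-1.74 ± 0.27, adjusted p = 0.00615). That call was lost in the compared groups alone, with the run block, and without no-antigen replicate 1 in low arginine (adjusted p = 0.0829). Gbp11, an interferon-induced GTPase gene, rose by 0.67 ± 0.24 in low lysine and by 3.36 in low arginine (difference -2.69 ± 0.36, adjusted p = 0.00278), a call that every alternative kept. Bcl2 rose in both media, by 1.95 and 2.83 (difference -0.89 ± 0.18, adjusted p = 0.0439), a call lost in 15 of 19 alternatives. The kinetochore genes Ndc80 (-3.44 ± 0.60, adjusted p = 0.017) and Spc25 (-2.04 ± 0.39, adjusted p = 0.0368), singled out after their values were seen, were the 2 mitosis genes called. As a list, mitosis genes had a lower change in low lysine, with median differences of -1.57 from low arginine and -1.22 from low leucine. Against low leucine none of them was called. Of the 35 members, 34 followed the same order across the antigen arrays, so they are not separate results. The single-array dependence given above holds here too.

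Cd80, Gpr183 and Tnfrsf26 were called against both other media, though not equally firmly. Cd80, a ligand of CD28 and CTLA-4, was not called in low lysine, at 5.79, 5.52 and 5.70 without antigen and 6.07, 5.75 and 6.29 with it (0.37 ± 0.19, adjusted p = 0.144). It rose by 2.44 in low arginine and 2.5 in low leucine, giving differences of -2.07 ± 0.28 (adjusted p = 0.00278) and -2.13 ± 0.27 (adjusted p = 0.00134). The second was kept under every alternative, and the first in all but the run block. Tnfrsf26 fell further in low lysine, by 2.58 against 0.86 and 0.90 in low arginine and low leucine (differences -1.71 ± 0.29 and -1.67 ± 0.27). Gpr183, which guides cells by oxysterols, changed by 0.20 ± 0.15 in low lysine and fell by 0.91 in low arginine and 1.13 in low leucine (differences 1.11 ± 0.22 and 1.33 ± 0.21). The calls for Tnfrsf26 were lost in 2 of 19 alternatives against low arginine, namely without antigen or no-antigen replicate 1 in low arginine, and in 5 of 20 against low leucine, both blocks included. Those for Gpr183 were lost in 14 of 19 and 5 of 20.

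Against low leucine, Tnfsf11 responded more in low lysine (difference 1.33 ± 0.23, adjusted p = 0.0248), with levels under antigen of 7.81 to 8.00 against 6.83 to 7.10. Il21, a follicular helper cytokine singled out after its values were seen, rose by 1.62 in low lysine to 6.05, 5.86 and 7.61, and by 4.62 in low leucine (difference -3.00 ± 0.52, adjusted p = 0.0248). With antigen Il21 lay at 9.40 to 9.79 in low leucine, 7.19 to 7.92 in low arginine and 6.59 to 8.21 in full medium. Low leucine thus stood above the other media for this gene. Fosl2 responded less (-1.65 ± 0.27, adjusted p = 0.0161), and Il6st, the chain that IL-6 family receptors share, changed by 0.24 in low lysine and fell by 0.70 in low leucine (0.94 ± 0.14, adjusted p = 0.0137). The calls for Tnfsf11 and Il21 were each lost in 9 of 20 alternatives, and those for Fosl2 and Il6st in 5 of 20. The losses for Tnfsf11 and Il21 included the replicate block, the run block, and antigen replicate 1 or 3 of low leucine or 1 or 2 of low lysine left out. Those for Fosl2 and Il6st included the run block, and antigen replicate 3 of low leucine or 2 of low lysine left out.

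**Figure D5:**
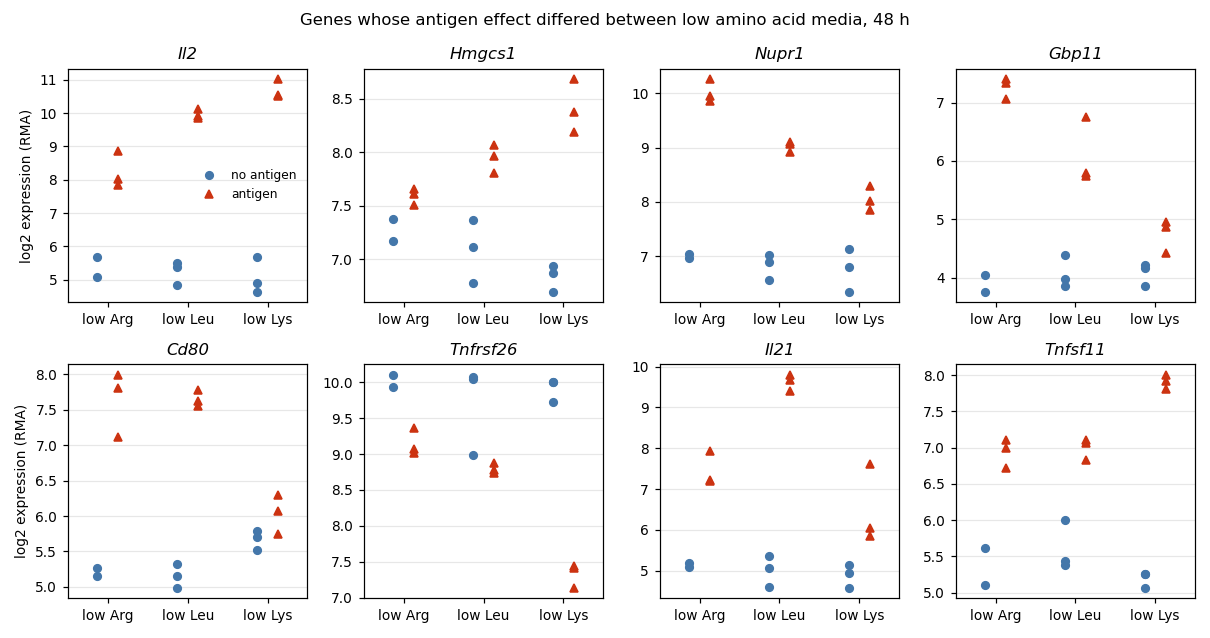
Log2 expression (RMA) of 8 genes whose antigen effect differed between low lysine and another low medium; each point is 1 array, blue circles without antigen and red triangles with antigen, in low arginine, low leucine and low lysine, with a separate vertical axis for each gene that does not start at 0. Cd80 with antigen lies at 5.75 to 6.29 in low lysine and above 7 in both other media, and Il2 with antigen is highest in low lysine.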

How the data were processed

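The members and the gene lists were chosen with earlier results of these data known. Per the labels, 48 h cells were measured on Mouse Gene 2.0 ST arrays; the authors deposited log2 values for each probe set. These come from RMA, run in Affymetrix Expression Console 1.1 according to the submitters' processing notes. RMA includes a quantile step that brings arrays toward a like distribution, so a change shared by most genes may be hidden. The deposited arrays still differed in their medians between groups, as given above, and the reason was not tested. Of 41345 probe sets, 23521 name 1 gene, 1814 several and 16010 none; the brightest probe set stood for each of 22180 genes, and probe sets naming several genes were not used. All 8 groups (23 arrays) were fitted together in limma 3.58.1 (R 4.3.3; lmFit, eBayes with an intensity trend), two-sided, with Benjamini-Hochberg adjustment over all genes. The steps were tested on simulated data. Lists (31 pathways, 7 cell types) are described by counts and medians. Genes named are the 12 largest rises and falls without overlap, up to 4 called members of each list, all lysine genes, 6 genes for each difference between media, and a fixed set such as Il2 and Asns.

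Same-numbered arrays did not deviate together (correlations 0.09, -0.05 and -0.03), so the numbers were not treated as pairing. Arrays from the same run of 6 submitter numbers correlated at 0.09, 0.07 and 0.09, the only positive values of 9, and none was over 0.1; the run was used as a block only in an alternative. Alternatives covered quantile normalization, median centring, probe set means, a filter on dim genes, no trend, the compared groups alone, blocks by replicate or run of 6 submitter numbers, and each array left out. Promoters are RefSeq windows (GRCm38.p6) from 250 bases before to 50 after the start, matched by symbol for 16990 genes; the 250 are printed. Plots were made in Python 3.11.15 with matplotlib 3.10.9.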

Additional observations from a re-analysis of the deposited data

Results flagged for a closer look

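The antigen effect of the following genes differed between low lysine and another low medium by a limma test of the difference itself, with adjusted p below 0.05. Values are low lysine minus the other medium on the log2 scale. A positive value means a larger rise or a smaller fall in low lysine, and a negative value a smaller rise or a larger fall. Against low arginine the difference was positive for Il2 (2.76) and Hmgcs1 (1.26), which rose further in low lysine, and for Gpr183 (1.11), which fell in low arginine. It was negative for Ndc80 (-3.44), Gbp11 (-2.69), Cd80 (-2.07), Spc25 (-2.04), Ddx43 (-1.97), Nupr1 (-1.74), Tnfrsf26 (-1.71), Prrg4 (-1.43) and Bcl2 (-0.89). Against low leucine it was positive for Tnfsf11 (1.33), which rose further in low lysine, and for Gpr183 (1.33) and Il6st (0.94), which fell in low leucine. It was negative for Il21 (-3.00), Cd80 (-2.13), Nkg7 (-1.82), Tnfrsf26 (-1.67), Fosl2 (-1.65) and Adh1 (-1.40). Tnfrsf26 fell in all 3 media and fell furthest in low lysine. The low arginine comparison rests on 2 arrays without antigen. Il21, Nkg7, Ndc80 and Spc25 were singled out after their values were seen. Among these differences, the calls for Gbp11 against low arginine and Cd80 against low leucine held under all alternatives run; the call for Bcl2 was lost in 15 of 19, that for Gpr183 against low arginine in 14 and that for Spc25 in 13. Against low leucine, the calls were lost in 12 of 20 alternatives for Nkg7, in 9 for Adh1, Il21 and Tnfsf11, and in 5 for Fosl2, Gpr183, Il6st and Tnfrsf26. The others against low arginine were lost in 11 of 19 for Hmgcs1, 8 for Ndc80, 4 for Il2, 3 for Nupr1, 2 for Prrg4 and Tnfrsf26, and 1 for Cd80 and Ddx43.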

How the results depend on the processing

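The count of genes changed by antigen stayed within 1.5 times of 6884 under all 14 alternatives, from 4645 with a block by run of 6 submitter numbers to 6894; it was 5114 with the replicate block (4980 for the compared groups alone) and 4862 to 6530 with an array left out. The genes behind that count changed more than the count itself. After quantile normalization 6208 genes were called, of which 4644 were among the 6884. After centring, 5373 of the 6121 called genes were among them. Counts for the differences between media did not hold. Against low arginine, 32 became 60 after quantile normalization, 15 after median centring, 53 with the filter on dim genes, 20 without an intensity trend, 9 in the compared groups alone, 8 with the replicate block, 7 with the run block, and 5 to 161 with an array left out. Against low leucine, 16 became 36 after quantile normalization, 28 with the filter, 1 in the compared groups alone, 3 with the replicate block, 4 with the run block, and 1 to 164 with an array left out. The filter tests fewer genes and the compared groups alone use fewer arrays; for the others the cause was not tested. Changes of Aass (-0.01) and Slc7a2 (-0.05), neither called, turned positive: Aass to 0.17 after quantile normalization, 0.13 after centring, and -0.10 to 0.15 with an array left out; Slc7a2 to 0.14, 0.09 and -0.21 to 0.05. Of single-gene values under alternatives, 2558 kept direction and side of the threshold, 230 lost the call, 5 gained it and 10 changed sign. List medians moved by more than the spread between arrays in 100 of the cases and by less in 432. Medians near 0 changed sign with the scaling: the receptor complex (-0.06) was -0.33 after quantile normalization and 0.08 after centring, the lysine list (-0.08) 0.02 and 0.06, and the interferon list (-0.03) 0.11 in both. With 3 arrays a group and signal near background for dim genes, small changes were not detectable.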
